A study of Mus musculus with 16 samples.

Results

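The genes described here were 10 genes of the Hippo pathway and its YAP targets among the 56748 genes counted in mouse TM4 cells. They were found by their symbols: *Frmd6*, *Amotl1*, *Amotl2* and *Lats2* as regulators upstream of YAP, *Yap1* and *Wwtr1* as the co-activators YAP and TAZ, *Tead1* as their DNA-binding partner, and *Ccn1*, *Ccn2* and *Ankrd1* as target genes. The list was selected on earlier results of these counts, with no stated threshold, so all differences of the 10 genes between groups count as used in the choice and are given as a description that tests nothing. All 10 genes matched a row of the counts, and their mean counts were 1000 or more, so none was near a limit of detection.

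TM4 is an established mouse cell line of Sertoli origin, and the labels call the cells Sertoli-like. The samples were RNA-Seq libraries of TM4 cells 24 h after transfection with 2.5 µg of plasmid DNA per well by Lipofectamine 3000. There were 6 samples with the empty vector pcDNA3.1-HA (EV), 5 with pcDgdf6Y, the expression plasmid for *gdf6Y*, the Y-chromosomal *gdf6* of the turquoise killifish (gdf6Y), and 5 with pcDgdf6Ydel9, the plasmid for a *gdf6Y* variant with a small deletion (del9). The comparison with EV asks what a *gdf6Y* plasmid changed, and the comparison with del9 sets the intact sequence against the mutated one. All samples came from 1 cell line, the plasmid carries the sequence of a fish in mouse cells, and nothing in the sources used here says that samples of a group came from separate cultures, so p-values below measure the spread between these samples only. Transfected and untransfected cells of a well were lysed together, and a change in fewer cells cannot be told apart from a smaller change in all cells.

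In the Hippo pathway, a cascade of kinases ends in LATS1 and LATS2, which phosphorylate the co-activators YAP and TAZ and so keep them out of the nucleus. Unphosphorylated YAP and TAZ bind TEAD proteins on DNA and switch on genes such as *Ccn1*, *Ccn2* and *Ankrd1*, so that transcripts of these targets are widely read as a measure of YAP and TAZ activity, while the activity itself is set mainly on the protein and is not seen in the transcripts of *Yap1* and *Wwtr1*. Several regulators, among them *Lats2* and *Amotl2*, are also YAP targets and act back on the pathway. In the gonads, the pathway is known for a part in the growth and identity of the supporting cells, Sertoli and granulosa cells.

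The letters GGAATG, or CATTCC on the opposite strand, are the core of the site that TEAD proteins bind. They were searched on both strands in the 250 bases before each annotated start, in RefSeq promoters of the mouse build GRCm38.p6, which is an older build than the GRCm39 of the counts. The table held 8 of the 10 genes, without *Ccn2* and *Tead1*, and the letters stood before a start of 5 of these 8, against 14.4% of all 27025 genes in it. They stood in 6 of the 10 promoters of the 8 genes, where *Lats2* and *Wwtr1* have 2 each, and in 12.6% of all 32851 promoters. The 2 promoters of *Wwtr1* overlap and hold the same site, so the 6 count it 2 times. A match of 6 letters is a description and not a bound site. The promoters with a match are printed 5′ to 3′ on the strand of the gene, with the letters in capitals, to show how they lie in 2 targets, in *Amotl2*, which is both regulator and target, and in the co-activators (for *Wwtr1* the upstream one of 2 overlapping promoters).
Ccn1 chr3:145649986-145650235, minus strand: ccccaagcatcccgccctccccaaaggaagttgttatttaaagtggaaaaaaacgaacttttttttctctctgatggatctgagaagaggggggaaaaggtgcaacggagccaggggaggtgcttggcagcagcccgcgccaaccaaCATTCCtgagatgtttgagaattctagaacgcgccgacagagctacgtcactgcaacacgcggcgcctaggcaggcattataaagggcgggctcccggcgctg
Ankrd1 chr19:36119845-36120094, minus strand: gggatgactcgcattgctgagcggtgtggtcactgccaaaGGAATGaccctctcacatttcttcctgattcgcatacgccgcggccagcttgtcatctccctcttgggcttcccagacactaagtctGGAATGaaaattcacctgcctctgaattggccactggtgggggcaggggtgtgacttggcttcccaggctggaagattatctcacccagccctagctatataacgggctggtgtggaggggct
Amotl2 chr9:102717554-102717803, plus strand: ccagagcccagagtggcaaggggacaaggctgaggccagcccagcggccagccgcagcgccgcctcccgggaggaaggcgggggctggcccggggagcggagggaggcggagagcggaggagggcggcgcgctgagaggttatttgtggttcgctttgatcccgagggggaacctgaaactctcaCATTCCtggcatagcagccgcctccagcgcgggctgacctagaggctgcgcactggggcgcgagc
Yap1 chr9:8004597-8004846, minus strand: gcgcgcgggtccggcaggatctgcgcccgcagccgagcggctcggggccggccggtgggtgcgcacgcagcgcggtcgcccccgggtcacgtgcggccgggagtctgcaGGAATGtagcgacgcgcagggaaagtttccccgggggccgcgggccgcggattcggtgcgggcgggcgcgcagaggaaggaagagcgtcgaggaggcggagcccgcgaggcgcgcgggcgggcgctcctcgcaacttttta
Wwtr1 chr3:57575911-57576160, minus strand: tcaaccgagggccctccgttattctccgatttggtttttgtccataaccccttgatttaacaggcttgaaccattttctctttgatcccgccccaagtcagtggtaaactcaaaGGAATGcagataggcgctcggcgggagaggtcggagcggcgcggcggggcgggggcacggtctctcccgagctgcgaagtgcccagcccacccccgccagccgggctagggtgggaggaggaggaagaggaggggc
In *Ankrd1* the letters stood 2 times on the sense strand, from -210 to -205 and from -123 to -118 relative to the start, and 1.02% of all promoters held 2 or more. *Ccn1* held them on the antisense strand from -103 to -98, and *Amotl2* on the antisense strand from -65 to -60. In *Yap1* they stood on the sense strand from -141 to -136 and in the *Wwtr1* promoter printed here from -136 to -131. The promoters of *Frmd6*, *Amotl1* and *Lats2* in the table did not hold these 6 letters within the window.

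The libraries held 21486850 to 25844048 counts in EV, 22349497 to 26444903 in gdf6Y and 24608410 to 26071045 in del9. Mouse *Gdf6* had 0 counts in all 16 samples, where up to 3 counts a library would go unseen, and the killifish sequence has no row in a mouse table. *Id1*, a direct target of BMP signalling, showed a response to the plasmids, at 1035 ± 38.3 normalized counts in EV (SD, n = 6), 1927 ± 87.6 in gdf6Y (n = 5) and 1235 ± 63.4 in del9 (n = 5). Of 11 Sertoli markers 5 had a mean of at least 10 counts, and *Wt1* and *Dmrt1*, which define the type in vivo, had no read in any sample. The summed Sertoli list lay at 1682 to 1770 in EV, 1497 to 1619 in gdf6Y and 1570 to 1734 in del9, so it moved with the gdf6Y group, and its part in the results below was not tested. The lists of Leydig cells, germ cells, endothelium and leukocytes summed to at most 12.3 normalized counts in any sample, and the smooth muscle and myoid list, of which 1 of 2 genes was detected, to 4406 to 4638 in EV, 4606 to 4986 in gdf6Y and 4485 to 4755 in del9. Replicate 1 of gdf6Y stood apart from the other gdf6Y samples, with chi-squares per degree of freedom of 9.19 to 14 in its 4 pairs, against 3.03 to 5.2 among the other 4. Counts of long genes relative to short genes also moved with the groups. The smoothed difference between genes of 10000 and of 2000 exonic bases, relative to the mean of all samples, was 0.019 to 0.065 (log2) in EV, -0.083 to -0.001 in gdf6Y and -0.053 to 0.008 in del9. Values after removal of this trend are given beside those without it.

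The 10 genes spanned a wide range of abundance, with the targets far above the regulators. The level of *Ccn1* in EV, in CPM (counts scaled to library size) per kilobase of exons, was 681 ± 24 (SD, n = 6), which ranked 14 among the 15059 protein-coding genes with a count in EV. *Ccn1* and *Ccn2* encode secreted matricellular proteins, CYR61 and CTGF, and *Ccn2* followed with 397 ± 20.9 at rank 42. *Ankrd1*, which encodes a nuclear and sarcomeric ankyrin repeat protein, had 160 ± 4.56 at rank 152. Together with *Amotl2* at 43.5 ± 1.7, these 3 targets lay above all other genes of the list in every EV sample.

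Among the co-activators and their partners, *Yap1* had a level of 24.3 ± 0.419 and *Wwtr1* of 11.8 ± 0.355 CPM per kilobase in EV, a ratio of 2.06 ± 0.0565. Angiomotin-like 1, encoded by *Amotl1*, binds YAP at junctions, and its transcript had a level of 23.8 ± 0.333, whose range overlapped that of *Yap1*. *Tead1* had 15.8 ± 0.57. Of the TEAD genes outside the list, *Tead2* had 18.5 ± 0.211, *Tead4* 6.54 ± 0.246 and *Tead3* 1.08 ± 0.0571. *Frmd6*, which encodes a FERM domain protein of the plasma membrane (Willin) placed upstream of the Hippo kinases, had 11.5 ± 0.357 and overlapped *Wwtr1*. The kinase gene *Lats2* was the lowest of the 10, with 5.13 ± 0.165, against 7.52 ± 0.287 for *Lats1*. The *Lats2* count may be low, since 2955 of its 10486 exonic bases are shared with the same-strand gene *Gm49361* and reads in both genes were discarded in counting. *Gm49361* itself had no read. The order in the middle depended on the length used, since with the longest transcript in place of all exons *Wwtr1* (29.6) stood above *Tead1* (21.5).

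**Figure D1:**
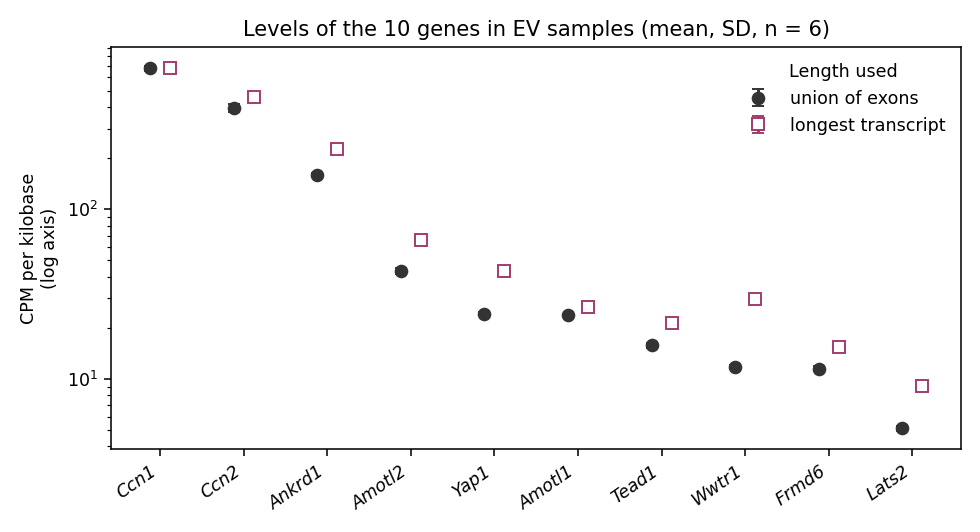
Levels of the 10 genes in the 6 EV samples on a log axis, in CPM per kilobase, with mean and SD. Filled circles divide by the length of all exons and open squares by that of the longest transcript. The level falls from 681 for Ccn1 to 5.13 for Lats2 by exon length, and Wwtr1 moves above Tead1 with the longest transcript.

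In GRCm39, *Frmd6* is at chr12:70871627-70949010 (plus strand), *Tead1* at chr7:112278522-112506014 (plus) and *Ccn2* at chr10:24471333-24474900 (plus). *Ccn1* is at chr3:145352720-145355738 and *Wwtr1* on the same chromosome at chr3:57363067-57483331, both on the minus strand. Chromosome 9 holds *Yap1* at chr9:7932000-8004661 (minus), *Amotl1* at chr9:14453262-14556352 (minus) and *Amotl2* at chr9:102593836-102610617 (plus). *Ankrd1* is at chr19:36089352-36097506 and *Lats2* at chr14:57926960-57995845, both minus. Counts were taken over the exons of each gene, UTRs included.

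Between gdf6Y and EV, *Tead1*, *Amotl1* and *Frmd6* were lower with the *gdf6Y* plasmid, with changes of -13.0%, -9.62% and -7.71% of the EV level, while the target genes *Ccn1*, *Ccn2* and *Ankrd1* changed by -0.0609%, 0.878% and -1.71%. A gene was called at an adjusted p under 0.05 in edgeR's quasi-likelihood test over all genes tested, with Benjamini-Hochberg adjustment. Of the 10 genes, 3 were called lower and 0 higher, where 3.38% of 26316 genes were called lower and 1.7% higher. At an unadjusted p under 0.05 there were 4 lower and 0 higher, and the share over all genes at that p was not counted. DESeq2 called 3 lower and 0 higher, where it called 755 of all 26316 genes lower and 525 higher. Abundant genes were called more often, 18.5% of the 5386 genes whose mean count was 1000 or more. This background is closer to the 10 genes, but it counts both directions and is not matched for length or for counts above that limit. The groups did not overlap for *Amotl1* and *Tead1*, against 2.61% of all genes and 8.99% of the abundant ones. The median log2 fold change of the 10 genes was -0.034, against -0.002 for all genes. Without gdf6Y replicate 1, the same 3 genes were called, where 1033 of all genes were called lower and 718 higher. With the replicate number as a block, *Lats2* was called lower too, at -0.097, where 1240 of all 26316 genes were called lower and 821 higher. With the block and removal of the length trend together there were 5 calls, all lower, with *Ccn1* (-0.052) and *Ankrd1* (-0.054) added to the 3 and *Lats2* not called. Over all genes 952 were then called lower and 812 higher.

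Between gdf6Y and del9, 5 of the 10 genes were called with the replicate number as a block and 1 without it. The gene called without the block was *Frmd6*, lower with the intact *gdf6Y* at a change of -9.54%. The count was 1 lower and 0 higher, where 0.41% of 25878 genes were called lower and 0.599% higher, and 2.49% of the 5471 abundant genes were called in either direction. At an unadjusted p under 0.05 there were 3 lower and 2 higher, and the share over all genes at that p was not counted. DESeq2 called 1 lower and 2 higher, where it called 33 of all 25878 genes lower and 48 higher. The groups did not overlap for 4 genes, with *Frmd6* and *Ankrd1* lower and *Ccn2* and *Amotl2* higher in gdf6Y, against 1.29% of all genes and 2.87% of the abundant ones. With the replicate number as a block, 5 of the 10 were called, adding *Ankrd1* (-0.095) and *Tead1* (-0.082) as lower and *Ccn2* (0.090) and *Amotl2* (0.10) as higher. Of all 25878 genes the block called 372 lower and 289 higher. The call of *Frmd6* did not hold with filterByExpr (-0.14) or with at least 10 counts in every sample (-0.14), and no gene of the 10 was called there. Over all genes these fits called 45 and 44. Without del9 replicate 1 there were 3 calls (*Frmd6*, *Ankrd1* at -0.11 and *Amotl2* at 0.11), without gdf6Y replicate 5 there were 2 (*Frmd6* and *Ankrd1* at -0.11), and without gdf6Y replicate 1 *Frmd6* alone, at -0.16. Over all genes these fits called 441, 207 and 357.

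Between del9 and EV, 5 of the 10 genes were called lower with the del9 plasmid and 1 higher. *Lats2*, *Amotl2*, *Tead1*, *Amotl1* and *Ccn2* were lower, with changes of -8.45%, -8.28%, -7.43%, -7.10% and -4.81%, and *Ankrd1* was higher by 5.44%. Of 26226 genes 4.43% were called lower and 4.82% higher, and 28.8% of the 5456 abundant genes were called. Higher genes made up 52.1% of all calls here, and 36.6% with total counts in place of TMM. The groups did not overlap for *Amotl1*, *Amotl2* and *Lats2*, against 3.77% of all genes and 12.9% of the abundant ones. The comparisons with EV share the EV samples, and those with del9 the del9 samples, so the 3 sets of differences are not independent of each other. The call of *Ankrd1* did not hold after removal of the length trend, where its difference was 0.034, nor with DESeq2's size factors (0.070), total counts (0.059), filterByExpr (0.069) or all 3 groups in one model (0.071). It was also lost without EV replicate 1 (0.062) or 4 (0.070) and without del9 replicate 3 (0.069) or 5 (0.064). The call of *Ccn2* was lost by DESeq2 (-0.077), with filterByExpr (-0.079) or at least 10 counts in every sample (-0.077), without EV replicate 2 (-0.055) or 5 (-0.057) and without del9 replicate 3 (-0.060) or 4 (-0.068).

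**Figure D2:**
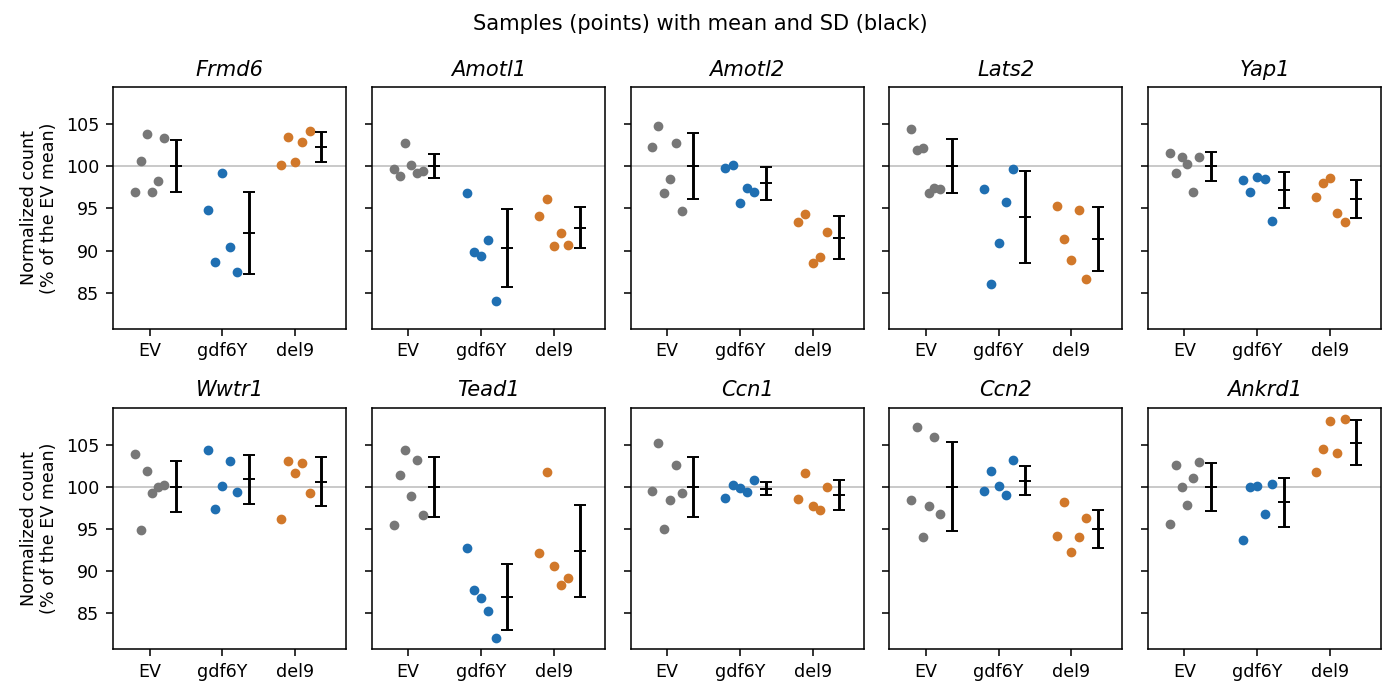
Normalized counts of the 10 genes in every sample as a percentage of the EV mean, with the mean and SD of each group in black (n = 6 for EV, 5 for gdf6Y and del9). Tead1 and Amotl1 of all gdf6Y samples lie under all EV samples, Frmd6 of all gdf6Y samples lies under all del9 samples, and Ccn1 and Wwtr1 overlap in all groups.

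Of the upstream regulators, *Frmd6* was the one called in both comparisons of gdf6Y. Its normalized counts, scaled to the mean library size of all samples, were 2174, 2258, 2330, 2174, 2205 and 2318 in EV. They were 2127, 1987, 2226, 2029 and 1962 in gdf6Y. In del9 they were 2247, 2321, 2255, 2307 and 2337. The gdf6Y samples lay under all del9 samples, and 4 of the 5 under all EV samples, with replicate 3 within the EV range. The log2 fold change was -0.12 ± 0.032 (SE) against EV and -0.14 ± 0.035 against del9, while del9 against EV was 0.035 ± 0.031. Both differences stayed nearly as large after removal of the length trend, at -0.11 and -0.14. The call against EV was lost without EV replicate 3 (-0.10), gdf6Y replicate 2 (-0.10) or gdf6Y replicate 5 (-0.098).

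The angiomotin-like proteins bind YAP in the cytoplasm and at junctions and hold it there. *Amotl1* had 5901, 5858, 6084, 5935, 5873 and 5892 normalized counts in EV. It had 5739, 5321, 5291, 5408 and 4977 in gdf6Y. In del9 it had 5575, 5697, 5366, 5454 and 5372. All samples of both *gdf6Y* plasmids lay under all EV samples, and gdf6Y and del9 overlapped. The log2 fold change was -0.15 ± 0.028 for gdf6Y and -0.11 ± 0.027 for del9, both against EV, and -0.034 ± 0.031 for gdf6Y against del9. After removal of the length trend the differences from EV were -0.12 and -0.092.

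*Amotl2* differed in another way, since only del9 was apart from EV. It had 7738, 7926, 7323, 7451, 7775 and 7160 normalized counts in EV. It had 7542, 7573, 7231, 7368 and 7330 in gdf6Y. In del9 it had 7061, 7134, 6694, 6752 and 6970. The gdf6Y samples lay within the EV range, and all del9 samples lay under all others. The log2 fold change was -0.12 ± 0.026 for del9 and -0.028 ± 0.027 for gdf6Y against EV, and 0.10 ± 0.031 for gdf6Y against del9. Without the length trend the same differences were -0.13, -0.024 and 0.11, and the last of them was then called. With the replicate number as a block and no length correction, gdf6Y against del9 was 0.103 ± 0.021 and was called. The *Amotl2* to *Amotl1* ratio per length was 1.83 ± 0.0877 in EV, 1.98 ± 0.0875 in gdf6Y and 1.8 ± 0.0331 in del9.

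*Lats2*, the kinase gene, had 1383, 1350, 1354, 1283, 1291 and 1289 normalized counts in EV. It had 1290, 1140, 1205, 1269 and 1320 in gdf6Y. In del9 it had 1262, 1211, 1177, 1256 and 1147. All del9 samples lay under all EV samples, while gdf6Y spread over both ranges. Against EV the difference was -0.13 ± 0.035 (log2) for del9 and -0.089 ± 0.036 for gdf6Y, and gdf6Y against del9 was 0.045 ± 0.040 with a 95% interval from -0.033 to 0.12. With the length trend removed, the differences from EV were -0.11 for del9 and -0.060 for gdf6Y. With the replicate number as a block, gdf6Y against EV was -0.097 ± 0.033 and was called. With the block and removal of the length trend it was -0.065 and was not called. The *Lats2* to *Lats1* ratio per length was 0.682 ± 0.0257 in EV, 0.694 ± 0.0479 in gdf6Y and 0.676 ± 0.0421 in del9, so the ratios of all groups overlapped.

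The co-activator genes themselves differed little. *Yap1* ranged from 5437 over a median of 5647 to 5696 normalized counts in EV, from 5245 to 5539 in gdf6Y and from 5238 to 5530 in del9. The ranges overlapped, and the log2 fold change was -0.040 ± 0.027 for gdf6Y and -0.054 ± 0.027 for del9 against EV. DESeq2 called the difference of del9, at -0.060, and after removal of the length trend the values were -0.019 and -0.045, neither called. *Wwtr1* ranged from 3257 to 3567 in EV, from 3343 to 3586 in gdf6Y and from 3301 to 3539 in del9. Its difference from EV was 0.014 ± 0.029 for gdf6Y and 0.011 ± 0.028 for del9 on the log2 scale, with 95% intervals from -0.043 to 0.071 and from -0.045 to 0.066, and without the length trend it was 0.052 and 0.035. The ratio of *Yap1* to *Wwtr1* per length was 2.06 ± 0.0565 in EV, 1.99 ± 0.0528 in gdf6Y and 1.97 ± 0.065 in del9.

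*Tead1*, which encodes a transcription factor that carries YAP and TAZ to DNA, had the largest difference of the 10 genes between gdf6Y and EV. It had 5054, 5368, 5526, 5234, 5464 and 5115 normalized counts in EV. It had 4909, 4643, 4595, 4516 and 4342 in gdf6Y. In del9 it had 4875, 5386, 4794, 4676 and 4720. All gdf6Y samples lay under all EV samples, and 4 of the 5 del9 samples did, with del9 replicate 2 inside the EV range. Against EV its log2 fold change came to -0.20 ± 0.028 for gdf6Y and -0.11 ± 0.027 for del9, and -0.083 ± 0.032 for gdf6Y against del9. With the replicate number as a block, gdf6Y against del9 was -0.082 ± 0.024 and was called. With the block and removal of the length trend it was -0.071 and was not called. *Tead1* has 13573 exonic bases, the most of the 10, and after removal of the length trend the differences from EV were -0.15 and -0.077, both still called. Its ratio to *Tead2* per length was 0.854 ± 0.0285 in EV, 0.722 ± 0.0239 in gdf6Y and 0.749 ± 0.0526 in del9.

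Of the target genes, *Ccn1* overlapped in all groups. It ranged from 32426 over a median of 33910 to 35913 normalized counts in EV, from 33692 to 34392 in gdf6Y and from 33195 to 34689 in del9. The log2 fold change was -0.001 ± 0.024 for gdf6Y and -0.011 ± 0.024 for del9 against EV, with 95% intervals from -0.048 to 0.046 and from -0.057 to 0.035. The direction for gdf6Y turned to 0.001 with at least 10 counts in every sample, and *Ccn1* is among the shortest of the 10 genes, so that after removal of the length trend the differences were -0.049 and -0.063, neither of them called. With the replicate block as well they were -0.052 and -0.067, and both were then called lower. Same-numbered samples of del9 and EV deviated together less closely than those of gdf6Y and EV (mean r 0.213 against 0.267).

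*Ccn2* had 30683, 33351, 29295, 30446, 33009 and 30141 normalized counts in EV. It had 31013, 31729, 31191, 30840 and 32135 in gdf6Y. In del9 it had 29349, 30594, 28732, 29300 and 29985. The gdf6Y samples lay within the EV range and above all del9 samples. Its log2 fold change was 0.013 ± 0.024 for gdf6Y against EV, which turned to -0.020 after removal of the length trend, -0.071 ± 0.024 for del9 against EV, which became -0.11 without that trend, and 0.090 ± 0.028 for gdf6Y against del9. The last was not called, but with the replicate number as a block it was 0.090 ± 0.015 and was called. The *Ccn1* to *Ccn2* ratio per length lay at 1.66 to 1.76 in EV and 1.68 to 1.73 in gdf6Y, and at 1.78 to 1.82 in del9, above every sample of the other groups.

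*Ankrd1* ran opposite to *Ccn2* between gdf6Y and del9, while gdf6Y and EV overlapped for both genes. It had 11256, 12076, 11769, 11517, 11889 and 12125 normalized counts in EV. It had 11034, 11765, 11777, 11390 and 11818 in gdf6Y. In del9 it had 11983, 12303, 12688, 12240 and 12722. All del9 samples lay above all gdf6Y samples, and 4 of the 5 above all EV samples. The log2 fold change was -0.025 ± 0.026 for gdf6Y against EV, 0.076 ± 0.025 for del9 against EV and -0.095 ± 0.029 for gdf6Y against del9. After removal of the length trend the 3 values were -0.060, 0.034 and -0.093, none of them called. With the replicate block as well they were -0.054, 0.041 and -0.093. Both differences of gdf6Y were then called, and that of del9 against EV was not. With the block alone, gdf6Y against del9 was -0.095 ± 0.019 and was called.

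**Figure D3:**
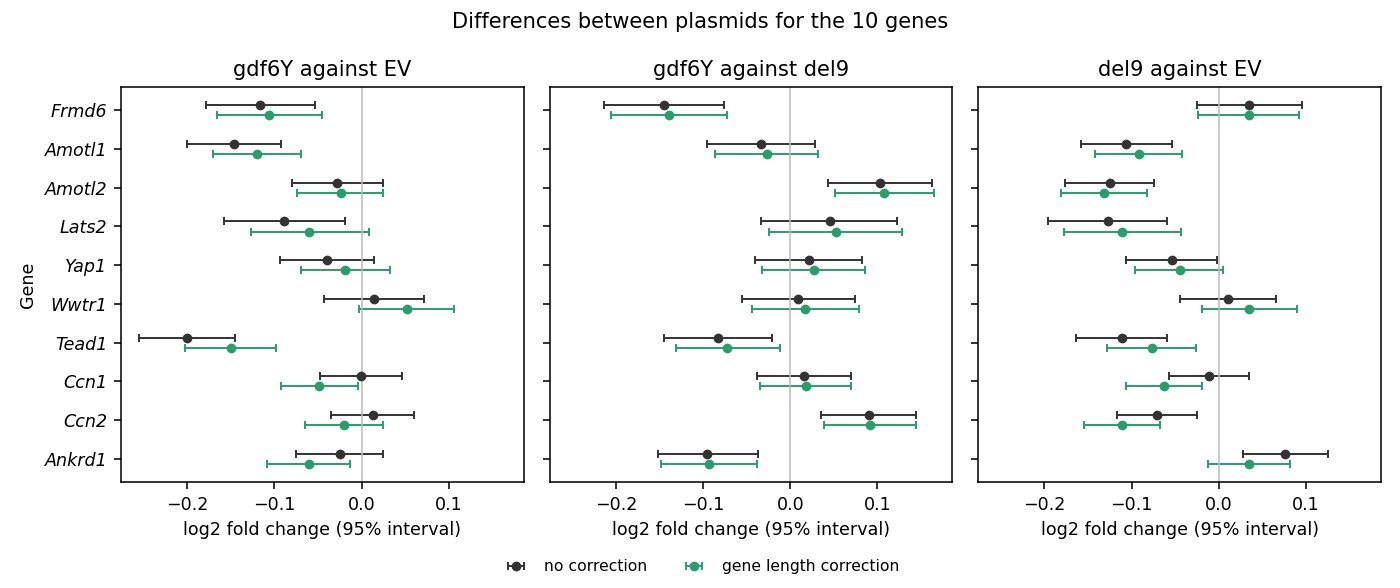
Log2 fold changes of the 10 genes with 95% intervals from edgeR in the 3 comparisons, without correction (black) and after removal of the gene length trend (green). All are from fits without the replicate block. Against EV, Tead1 is at -0.20 for gdf6Y without correction and -0.15 with it, and against del9 Frmd6 is at -0.14 with or without it.

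The rest of the pathway was read from lists written from general knowledge of it, with 59 genes outside the 10. They were written with earlier results of these data known, so their calls and p-values are given as a description. The lists hold upstream regulators and kinases (32 genes), TEAD genes and their co-factors (7), targets of a YAP and TAZ signature without those among the 10 (17) and other CCN genes (4), with *Ptpn14* in 2 of them. *Igfbp3*, *Ccn6* and *Vgll1* had no reads. Between gdf6Y and EV, 13 of the 56 genes tested were called lower and 0 higher. Estimates lay below 0 for 42 of the 56 and above 0 for 14. The median log2 fold change of the 56 was -0.056, against -0.002 for all genes. Over all genes 3.38% were called lower and 1.7% higher, and 18.5% of the abundant genes were called in either direction. Of the 56 pathway genes 37 were abundant, so their share and the 18.5% are of unlike sets. At an unadjusted p under 0.05 there were 18 lower and 2 higher, and the share over all genes at that p was not counted. DESeq2 called 12 lower and 1 higher, where it called 755 of all 26316 genes lower and 525 higher. The lists were 6 of 32 upstream regulators, 1 of 6 TEAD genes and co-factors, 6 of 16 signature targets and 1 of 3 CCN genes lower.

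Among the upstream regulators that fell with gdf6Y, *Amot*, the third angiomotin gene, had 844.6 ± 22 normalized counts in EV (SD, n = 6) and 746.1 ± 37.9 in gdf6Y (n = 5). These groups did not overlap, and the log2 fold change was -0.18 ± 0.041 (SE; edgeR, adjusted p = 8.8e-04). *Taok1*, a kinase gene that acts above the Hippo kinases, fell by 0.15 ± 0.029 on the log2 scale (edgeR, adjusted p = 1.4e-05), and *Lats1* by 0.11 ± 0.031 (adjusted p = 0.00989). *Mink1*, *Slmap* and *Ptpn14* fell too, with log2 fold changes of -0.11, -0.12 and -0.11. *Vgll3*, a TEAD co-factor gene, fell by 0.11 on the same scale, a call that was lost by DESeq2, with filterByExpr or at least 10 counts in every sample, and without EV replicate 1 or 3 or gdf6Y replicate 2, 3 or 5. Its value ran from -0.138 to -0.083 over the fits without 1 sample. Without EV replicate 3 the calls of *Lats1*, *Ptpn14* and *Mink1* were lost, without gdf6Y replicate 3 those of *Lats1* and *Ptpn14*, and without gdf6Y replicate 5 those of *Lats1*, *Ptpn14* and *Slmap*.

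Of the signature targets, *Myof*, a gene of membrane repair, had the highest counts. It had 25938 ± 767 normalized counts in EV, 23418 ± 1190 in gdf6Y and 25268 ± 1071 in del9, and the log2 fold change was -0.15 ± 0.025 against EV (edgeR, adjusted p = 5.5e-07) and -0.10 ± 0.028 against del9 (adjusted p = 0.0244). *Ccdc80*, which encodes an extracellular matrix protein, fell by 0.19 ± 0.030 on the log2 scale (edgeR, adjusted p = 1.1e-07). *Gadd45a*, a stress response gene, fell by 0.18 ± 0.036 (adjusted p = 9.2e-05), and *F3*, the gene of tissue factor, and *Dock5* had log2 fold changes of -0.13 and -0.11. Both calls were lost without gdf6Y replicate 5, and that of *F3* also without EV replicate 4. *Ccn4*, a CCN gene known as a Wnt target, had 2033 ± 47 normalized counts in EV and 1830 ± 48.1 in gdf6Y, with a log2 fold change of -0.15 ± 0.032 (edgeR, adjusted p = 2.7e-04) and no overlap.

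After removal of the length trend, 9 of these 13 calls held and 4 (*Lats1*, *Ptpn14*, *Slmap* and *Dock5*) did not, and *Stk3*, *Strn3*, *Btrc* and *Csnk1e* were called higher, so the split changed from 13 lower and 0 higher to 9 lower and 4 higher. Without gdf6Y replicate 5 there were 7 genes called lower, where 559 of all genes were called lower and 235 higher. Without gdf6Y replicate 1 there were 13 lower and 1 higher, where 1033 of all genes were called lower and 718 higher. With the replicate number as a block there were 15 lower and 1 higher, with *Strn* (-0.10) and *Asap1* (-0.081) added as lower and *Csnk1e* (0.076) as higher, and the block with removal of the length trend gave 15 lower and 5 higher. Over all genes, removal of the trend gave 657 lower and 460 higher. The block gave 1240 and 821, and both together 952 and 812.

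Between gdf6Y and del9, 2 of the 55 pathway genes tested were called lower and 0 higher, and 38 of the 55 were abundant. Estimates lay below 0 for 30 of the 55 and above 0 for 25. Of all genes 0.41% were called lower and 0.599% higher, and 2.49% of the abundant genes in either direction, so the 2 calls were near their background. They were *Myof* and *Wwc1*, the gene of the scaffold protein KIBRA, which had 2309 ± 79.3 normalized counts in gdf6Y and 2530 ± 77.5 in del9 (SD, n = 5 each) and a log2 fold change of -0.13 ± 0.035 (SE; edgeR, adjusted p = 0.0277). The median of the list was -0.016, against 0.010 for all genes. At an unadjusted p under 0.05 there were 9 genes lower and 2 higher, and the share over all genes at that p was not counted. DESeq2 called 1 lower, where it called 33 of all 25878 genes lower and 48 higher. With the replicate number as a block there were 4 calls, with *Axl* and *Ccn4* added as lower, where 372 of all genes were called lower and 289 higher. There were 0 calls with total counts, with filterByExpr, with at least 10 counts in every sample or without gdf6Y replicate 5, del9 replicate 2 or del9 replicate 3, and 1 without gdf6Y replicate 1 or 4 or del9 replicate 5. Over all genes the fits with 0 calls here had 44 to 268, and those with 1 had 197 to 357.

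Between del9 and EV, 9 of 56 pathway genes were called lower and 2 higher. Estimates lay below 0 for 38 of the 56 and above 0 for 18, with a median of -0.035, against -0.005 for all genes. The shares over all genes were 4.43% lower and 4.82% higher. Of the abundant genes 28.8% were called in either direction, a larger share than among the 56 pathway genes, of which 38 were abundant. *Ccdc80* fell by 0.23 ± 0.029 on the log2 scale (edgeR, adjusted p = 4.2e-13), *Amot* by 0.18 ± 0.041 (adjusted p = 2.5e-04) and *Rbms3*, a gene of an RNA-binding protein, by 0.23 ± 0.052 (adjusted p = 2.6e-04). *Taok1*, *Gadd45a*, *Vgll3*, *Lats1*, *Mob1b* and *Strn* also fell, with log2 fold changes from -0.14 to -0.11. *Csnk1e*, a casein kinase gene, rose by 0.11 ± 0.028 (edgeR, adjusted p = 0.0016) and *Wwc1* by 0.10 ± 0.030 (adjusted p = 0.0112). After removal of the length trend *Lats1* and *Mob1b* were not called, and the split was 9 lower and 4 higher, where 1107 of all genes were called lower and 897 higher.

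**Figure D4:**
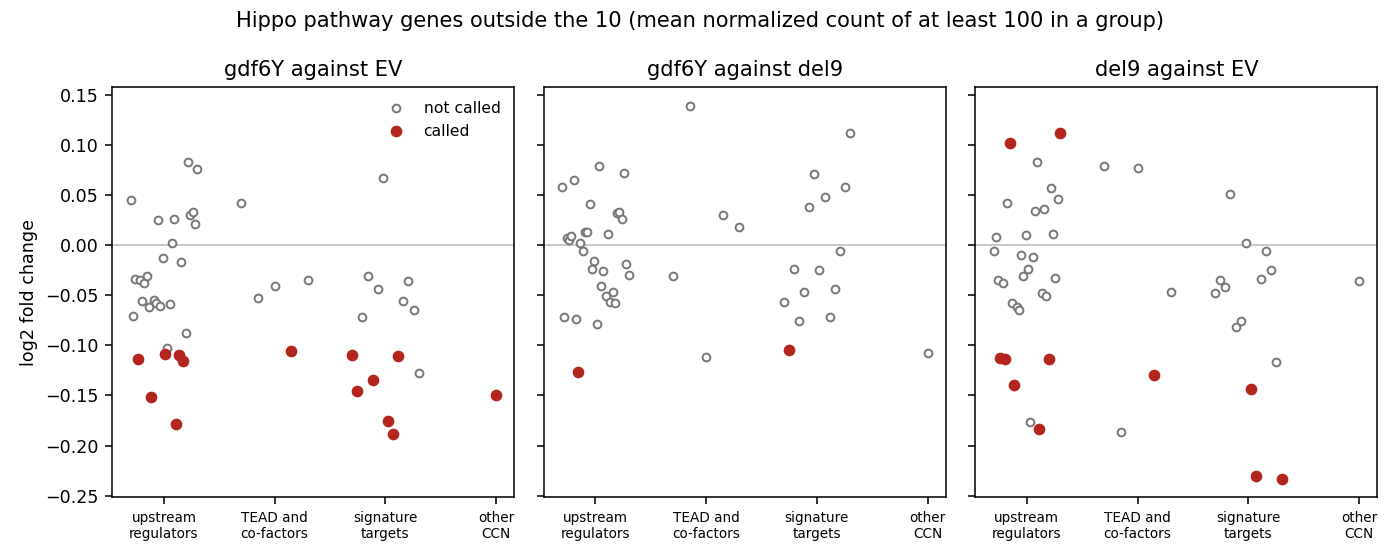
Log2 fold changes of pathway genes outside the 10, by list, in the 3 comparisons, for genes with a mean normalized count of at least 100 in a group (30 upstream regulators, 5 TEAD genes and co-factors, 14 signature targets and 1 CCN gene). Filled points were called at an adjusted p under 0.05. Against EV all called genes are below 0 for gdf6Y, without correction for gene length, and 2 are above 0 for del9.

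Whether the 3 target genes moved together was tested within groups, which does not use the differences between plasmids. The log2 normalized counts (with 1 added) were taken as deviations from the group mean in 16 samples, and samples were permuted within groups (two-sided, 100000 resamples, Benjamini-Hochberg over 3 pairs). *Ccn1* and *Ccn2* moved together, with Pearson's r = 0.944 (permutation p = 2e-05, adjusted 6e-05) and Spearman's rho = 0.874 (permutation p = 0.00011, adjusted 0.00033). Without EV replicates 2 and 3, the samples farthest from the median of *Ccn1*, r was 0.906, and within the EV samples alone it was 0.956 (n = 6). EV replicates 2 and 5 were high in both genes and EV replicate 3 was low in both. With the mean of each replicate number removed as well, r was 0.911 (permutation, adjusted p = 0.0003). The permutation treats the samples of a group as independent, although same-numbered samples of gdf6Y deviated together with those of EV and of del9. It tests r against 0. How many other gene pairs had an r as high was not counted, so whether this r is particular to target genes was not tested.

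With the groups pooled, *Ankrd1* did not follow them to a degree that could be detected in 16 samples. For *Ccn1* and *Ankrd1* r was 0.326 (permutation p = 0.27, adjusted 0.34) and rho 0.368 (permutation p = 0.2, adjusted 0.3), and r was 0.320 without the same 2 samples. For *Ccn2* and *Ankrd1* r was 0.284 (permutation p = 0.34, adjusted 0.34), rho 0.209 (permutation p = 0.48, adjusted 0.48), and r was 0.122 without EV replicates 2 and 5. With the mean of each replicate number removed, r was 0.417 (permutation, adjusted p = 0.12) and 0.332 (permutation, adjusted p = 0.2). Within single groups r of *Ccn1* and *Ankrd1* was 0.378 in EV (n = 6), 0.925 in gdf6Y and 0.073 in del9 (n = 5 each). For *Ccn2* and *Ankrd1* it was 0.339, 0.697 and -0.078. Whether these r differ between groups was not tested.

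**Figure D5:**
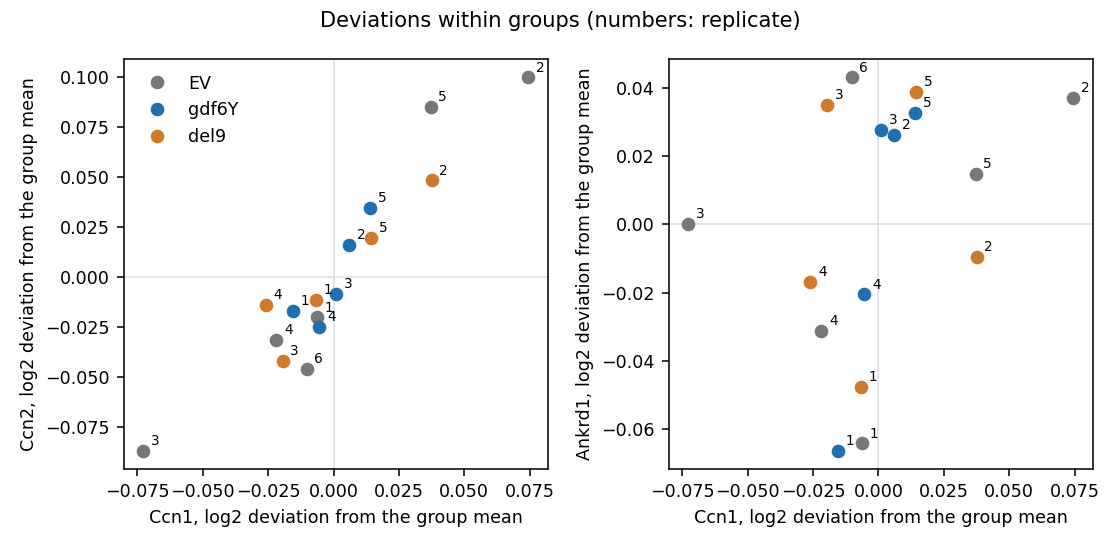
Deviations of log2 normalized counts from the group mean in the 16 samples, for Ccn2 (left) and Ankrd1 (right) against Ccn1, with replicate numbers beside the points. The points for Ccn1 and Ccn2 follow a line (r = 0.944), and those for Ccn1 and Ankrd1 scatter (r = 0.326).

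Genes with a pattern most like that of *Ccn2* over all 16 samples, by Pearson's r of log2 normalized counts among 10075 genes whose mean count was 100 or more, were *Vps54* (0.910), *Mtfr2* (0.888), *Scoc* (0.866), *Snai2* (0.859) and *Cep70* (0.843), with *Ccn1* at rank 6 (0.837) and *Amotl2* at rank 9 (0.810). For *Frmd6* they were *Ehd4* (0.910), *Tgfbr2* (0.854), *Arap1* (0.850), *Dagla* (0.848) and *Mapk6* (0.835), and *Frmd6* and *Ccn2* had an r of -0.461. These values include the differences between groups, the points share libraries and depth, and they are given as a description.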

How the data were processed

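The deposited values were raw counts per gene of 16 RNA-Seq libraries (6 EV, 5 gdf6Y and 5 del9). Per the labels and the study's methods, the authors took poly(A) RNA of 300 ng total RNA into stranded libraries with molecular identifiers, demultiplexed with bcl2fastq 2.20.0.422, aligned to GRCm39 with STAR 2.7.10a, removed duplicates with UMI-tools and counted reads on the strand of each gene with featureCounts 2.0.3, leaving out reads of several sites or genes. Other samples of the study were not analysed here.

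A GENCODE annotation of GRCm39 gave symbols, positions and lengths; it matched 56017 of 56748 identifiers and is not the release used for counting. Counts were scaled by TMM and tested with edgeR 4.0.16 in R 4.3.3 (quasi-likelihood test, 2 groups per fit, genes counted at least 1 time in a sample of the fit, Benjamini-Hochberg over all genes, called at an adjusted p under 0.05). Normalized counts were scaled to the mean effective library size. Fits were tested on simulated data. Alternatives were DESeq2 1.42.0, other scalings and filters, 1 model for all groups, a block for the replicate number, removal of a smooth trend on exonic length, and leaving out each sample. Correlations used scipy 1.17.1 and numpy 2.4.6.

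The replicate numbers come from the labels. Same-numbered samples deviated together in every pair of gdf6Y and EV (r = 0.109 to 0.417) and of gdf6Y and del9 (r = 0.220 to 0.382), so these were taken as paired, and blocked values of the 10 genes are given where they change a call. For del9 and EV r was positive in every pair as well, but as low as 0.053. EV replicate 6 has no partner and carries no weight in the blocked difference. No samples of a group agreed within sampling noise (chi-square per degree of freedom 1.5 to 14 over 35 pairs and 10075 genes).

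Named genes were the 10 members, *Id1*, *Gdf6*, pathway genes called in any comparison, and the 5 genes most like *Ccn2* and *Frmd6*; *Stk3*, *Strn3*, *Btrc*, *Asap1* and *Axl* were named after their values were seen. Members and lists were chosen with earlier results of these data known. Promoter sequences were RefSeq's (GRCm38.p6); protein sequences were not analysed here.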

Additional observations from a re-analysis of the deposited data

Results flagged for a closer look

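In groups of 5 or 6 samples, the highest or lowest value was compared with its nearest neighbour as a share of the whole range (Dixon's ratio at its 95% critical value). Of 33 groups of values, 3 had a sample that far from the others, where chance gives about 1 in 20, or 1.65. *Amotl1* was highest in EV replicate 3, with a ratio of 0.662, at 6084 normalized counts against 5858 to 5935 in the other EV samples. *Tead1* was highest in del9 replicate 2, with a ratio of 0.719, at 5386 against 4676 to 4875 in the other del9 samples. The total count was lowest in del9 replicate 3, with a ratio of 0.712, at 24608410 against 25650188 to 26071045.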

How the results depend on the processing

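The largest difference among the 10 genes was -0.200 on the log2 scale (*Tead1*, gdf6Y against EV). The cause was not tested for any of the changes below.

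The numbers of genes called over the whole table were 1338 for gdf6Y against EV, 261 for gdf6Y against del9 and 2425 for del9 against EV. With the replicate block they were 2061, 661 and 2996, and with the block and length correction 1764, 639 and 2652. For gdf6Y against del9, DESeq2 called 81, filterByExpr 45 and at least 10 counts in every sample 44. Total counts gave 268 there, all groups in one model 211 and length correction 284. Leaving out 1 sample gave 794 (without gdf6Y replicate 5) to 1751 (without gdf6Y replicate 1), 160 (without del9 replicate 2) to 441 (without del9 replicate 1) and 1692 (without del9 replicate 3) to 2715 (without del9 replicate 1). Between del9 and EV the r of same-numbered samples was positive in every pair too (0.053 to 0.299). Its mean was 0.213, against 0.267 for gdf6Y and EV. The block left the 6 calls among the 10 genes at 6.

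Of the 10 genes, gdf6Y against EV had 3 calls, 5 with block and length correction, and 2 to 3 without 1 sample. Against del9 there was 1 call, with 3 by DESeq2, 3 with total counts, 2 with all groups in one model, 2 with length correction, 5 with the block, 4 with block and length correction, 0 with filterByExpr and 0 with at least 10 counts in every sample, where 2 genes higher and 3 or 2 lower had an unadjusted p under 0.05, and 1 to 3 without 1 sample. For del9 against EV there were 4 to 6 without 1 sample. Pathway genes outside the 10 gave 13, 2 and 11 calls, which became 20, 4 and 17 with block and length correction and 7 to 14, 0 to 2 and 9 to 13 without 1 sample. For gdf6Y against del9 they gave 1 by DESeq2, 4 with the block, and 0 with total counts, filterByExpr or at least 10 counts in every sample.

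Directions turned only for differences near 0. *Ccn1* in gdf6Y against EV was 0.001 with at least 10 counts in every sample and with all groups in one model, and -0.012 to 0.014 without 1 sample. *Ccn2* was -0.020 with length correction, -0.030 with block and length correction, and -0.001 to 0.033 without 1 sample. *Wwtr1* ranged from -0.001 to 0.030 without 1 sample. *Wwtr1* in gdf6Y against del9 ranged from -0.008 to 0.021 without 1 sample. In del9 against EV, *Ccn1* ranged from -0.024 to 0.000, and *Wwtr1* was -0.006 with total counts and -0.008 to 0.023 without 1 sample.

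With the longest transcript, levels in EV were 15.5 (*Frmd6*), 463 (*Ccn2*), 226 (*Ankrd1*), 26.7 (*Amotl1*), 66.4 (*Amotl2*), 9.14 (*Lats2*), 43.1 (*Yap1*), 29.6 (*Wwtr1*) and 21.5 (*Tead1*). The correlation within groups was 0.911 for *Ccn1* and *Ccn2* with the replicate block, and 0.915 to 0.958 without 1 sample. For *Ccn1* and *Ankrd1* it was 0.199 to 0.420 and for *Ccn2* and *Ankrd1* 0.156 to 0.407 without 1 sample.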
